A study of Homo sapiens with 4 samples.

Results

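The genes described here are the protein-coding genes of human chromosome 19 whose symbol is ZNF followed by a number and at most 1 letter. They were found by name, biotype and chromosome alone, and 246 of the 58735 genes in the table met the rule. RNA was sequenced from 4 libraries of HFL1, a line derived from human fetal lung fibroblasts. Of these, 2 libraries are labelled WT (wild type) and 2 are labelled KO, and the series describes knockout or knockdown of calumenin (gene CALU), which binds calcium in the endoplasmic reticulum. The study asked how calumenin bears on senescence and fibrosis signalling in fibroblasts. No allele, guide, clone number, passage or treatment is given in the sources used here, and no source says whether a group's 2 libraries are separate cultures. The p-values therefore reflect the spread between these libraries alone, which may be technical.

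Most chromosome 19 ZNF proteins carry an array of C2H2 zinc fingers that reads DNA, and many carry at their N terminus a KRAB domain, which recruits the corepressor TRIM28 (KAP1). TRIM28 in turn brings SETDB1, which places H3K9 trimethylation, together with HP1 proteins and DNA methyltransferases. The genes arose by repeated tandem duplication and lie in clusters, and many of the proteins bind transposable elements.

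The targeted gene was read first. CALU stood at 87.7 and 81.8 FPKM in the WT libraries and at 6.59 and 5.95 FPKM in the KO libraries, a 13.5-fold lower mean (limma adjusted p = 0.00154). FPKM is the fragment count scaled by gene length and by library depth, so it can be compared between genes. The recovered reads numbered 16173899 to 17715774 per library. Of 13 fibroblast markers, 8 were below 1 FPKM in every library, and COL1A2 and POSTN had 0 reads. The summed level of the 13 was 1017 to 1408 FPKM in WT and 570 to 823 FPKM in KO. All 10 epithelial markers reached 1 FPKM in at least 1 library, and their summed level was 1047 to 1187 FPKM in WT and 1929 to 2302 FPKM in KO. The marker levels therefore go against the fibroblast label of the line, and the part of these marker differences in the results below was not tested. Of 5 endothelial markers 5 stayed below 1 FPKM, as did 4 of 5 leukocyte and 1 of 5 neuronal markers.

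The KO libraries also differed from each other by GC content. Among genes with a low transcript GC content (below 41.07%), the median log2 difference of KO replicate 2 from KO replicate 1 was -0.26, and at a high one (above 58.22%) it was 0.23. The members are GC-poor for their chromosome, with a median transcript GC of 42.2% against 59.4% in the other protein-coding genes of chromosome 19. The same difference between the KO libraries had a median of -0.10 in the tested members and of 0.24 in the other tested chromosome 19 genes. The groups differed by GC content too. The median log2 difference of the KO mean from the WT mean was 0.15 in the low-GC genes and -0.08 in the high-GC genes, members left out. It was 0.27 in the tested members and 0.05 in the other tested chromosome 19 genes. The part of GC content in the members' difference was not tested.

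Most chromosome 19 ZNF genes were expressed at a low level. The median over the 246 members of the mean FPKM was 0.788. It was 2.36 in the 263 numbered ZNF genes of other chromosomes and 1.79 in the 1226 other protein-coding genes of chromosome 19. No read at all was counted for 37 members, 70 stayed below 0.1 FPKM in every library, 107 had a mean of at least 1 FPKM and 10 a mean of at least 10 FPKM. Of the 1226 other protein-coding genes of chromosome 19, 190 had no read and 308 stayed below 0.1 FPKM. These shares are close to those of the members. Of the 263 numbered ZNF genes of other chromosomes, 19 had no read and 28 stayed below 0.1 FPKM. A count of 3 reads, the limit that a count of 0 allows, corresponded to 0.0130 to 0.135 FPKM depending on the gene's length, so a listing at 0 means undetected at this depth.

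Sequence features of the proteins were read from translated GENCODE transcripts. A KRAB A box pattern was found in 206 members, here called KRAB-like, and not in 40. The largest number of C2H2 finger patterns in any 1 isoform had a median of 12 and ran from 0 to 36. The members with a mean of at least 10 FPKM all lacked the KRAB pattern. KRAB-like members had a median mean level of 0.600 FPKM and the others of 2.90 FPKM.

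The most abundant member was ZNF146, a protein made of fingers with no KRAB domain, at 56.2 and 52.0 FPKM in WT and 44.4 and 35.3 FPKM in KO. Both KO libraries were below both WT libraries, and the difference did not pass the threshold (limma adjusted p = 0.116). ZNF580 stood at 19.7, 21.3, 18.4 and 21.2 FPKM in WT replicates 1 and 2 and KO replicates 1 and 2, with overlapping groups. ZNF358 was at 17.2, 15.2, 16.8 and 12.2 FPKM, also with overlap. ZNF428 was at 10.2, 17.4, 13.7 and 24.03 FPKM, and here the libraries numbered 2 exceeded those numbered 1 in both groups. ZNF865 completed the 5 most abundant members and is described with the genes that fell.

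**Figure D1:**
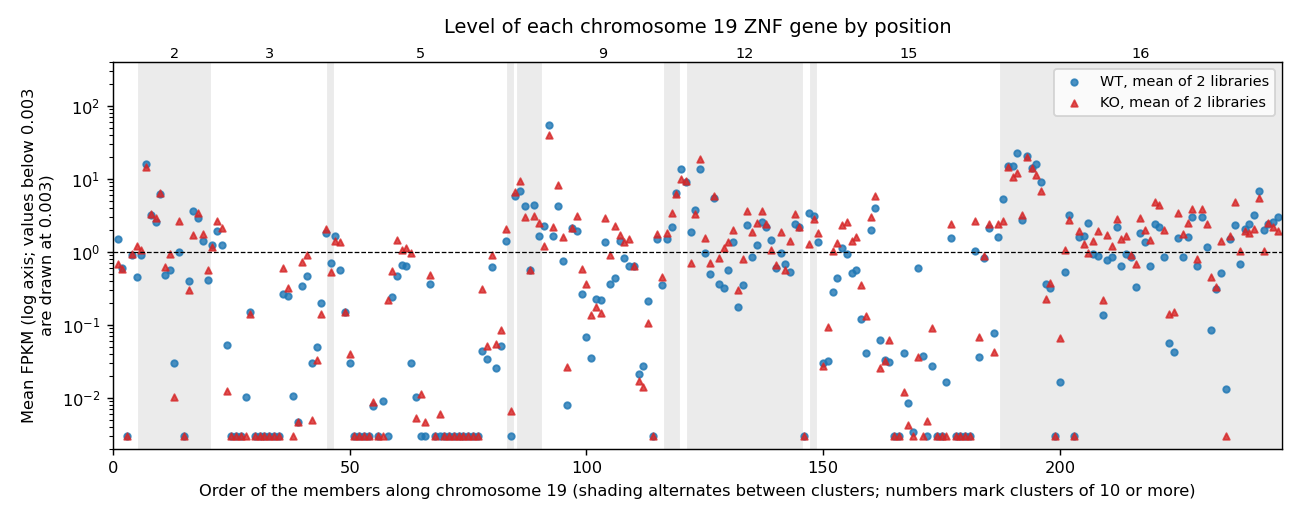
Mean FPKM of each of the 246 members in WT (circles) and KO (triangles), each the mean of 2 libraries, on a log axis against the order of the genes along chromosome 19. The dashed line marks 1 FPKM, and runs of neighbours at the bottom of the plot lie in the clusters numbered 3, 5 and 15.

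Members were grouped into clusters wherever the gap between neighbours' starts exceeded 1 Mb. This gave 16 clusters, of which 7 held at least 10 members and together 225 of the 246, and 4 held a single gene. Clusters 1 to 5 held 83 members and clusters 6 to 16 held 163. All coordinates are on GRCh38 with GENCODE release 29 genes.

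Cluster 5 (chr19:19668796-24129961) was the quietest of the large clusters. Of its 37 members 24 stayed below 0.1 FPKM throughout, and the cluster's median of mean levels was 0.0078 FPKM. A run of 10 neighbours from ZNF208 to ZNF730 reached at most 0.0121 FPKM in any library, and a run of 8 from ZNF253 to ZNF66 at most 0.0630 FPKM. The second run holds ZNF93, a repressor of LINE-1 elements, which had 0 reads in every library. ZNF91, a repressor of SVA elements in the same cluster, had 30 reads in all and 0.0211, 0.0469, 0.0659 and 0.0352 FPKM. The most abundant member of the cluster was ZNF254, at 1.41 and 1.37 FPKM in WT and 2.04 and 2.02 FPKM in KO, which did not pass the threshold (limma adjusted p = 0.144). ZNF675, which is known as an inhibitor of TRAF6 signalling, was at 0.533, 0.719, 0.959 and 0.881 FPKM and was below the filter of the main test. In the fit of recovered reads described below it did not pass the threshold (voom adjusted p = 0.143).

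Cluster 3 (chr19:11483427-12640098) held 25 members, 15 of them below 0.1 FPKM in every library. A run of 6 genes from ZNF763 to ZNF625 had 0 reads in all libraries. These 6 shared a median of 32.3% of their 100-base words with other genes, and reads that match several copies may not have been counted. The run of 5 from ZNF441 to ZNF69 shared a median of 0.00% and reached at most 0.0923 FPKM. The most abundant member was ZNF627 (2.13, 1.77, 3.04 and 2.31 FPKM). Among members in the main test described below, the largest log2 change was that of ZNF823 (1.45, 1.07, 1.93 and 2.33 FPKM). Neither ZNF627 nor ZNF823 passed the threshold (limma adjusted p = 0.233 and 0.103).

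Cluster 15 (chr19:51571298-53580269) was mixed. Of its 39 members, all KRAB-like, 18 stayed below 0.1 FPKM in every library, including runs of 7 from ZNF880 to ZNF83 and of 4 from ZNF415 to ZNF677, the latter with 0 reads. The 10 neighbours from ZNF175 to ZNF480 with at least 40 reads were expressed and are described below. ZNF331, an imprinted gene in several tissues, lies at the far end of the cluster and stood at 1.45 and 1.73 FPKM in WT and 2.27 and 2.48 FPKM in KO (limma adjusted p = 0.123).

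Clusters 12 and 16 had few silent members. In cluster 12 (chr19:43525497-45076588) 0 of 24 members stayed below 0.1 FPKM in every library. In cluster 16 (chr19:55476332-58481230), the last before the end of the long arm, 4 of 59 did and 42 had a mean of at least 1 FPKM. Cluster 9 (chr19:36182060-37817300) had 4 such members of 26. It holds ZNF382, a KRAB gene reported as silenced in several tumours, with 13 reads in all, and ZNF568, which is known to repress a placental IGF2 transcript, at 0.209, 0.233, 0.151 and 0.136 FPKM. ZNF536, a single-gene cluster of its own and a regulator of neuronal differentiation, had 2 reads in all.

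The comparison of KO with WT was tested with limma on log2(FPKM + 1), over the 14100 genes that reached 1 FPKM in 2 or more libraries, with Benjamini-Hochberg adjustment over all of them and a threshold of 0.05. Of the 246 members, 118 passed this filter. Of these, 19 were called higher in KO (16.1%, against 12.1% of all tested genes called higher) and 6 lower (5.08%, against 11.1%), and 93 did not pass the threshold. The share called higher was thus near the background. The median log2 change of the 118 was 0.27 and that of all tested genes was 0.03. The filter treats both groups alike, but some members passed it through 1 group alone. Of the 118, 25 reached 1 FPKM in the 2 KO libraries only (21.2%, against 3.50% of all tested genes). Of the 19 calls, 9 were among these, and 2 of the 118 passed through WT only. Fewer cells with a transcript and less RNA per cell cannot be told apart in such bulk libraries.

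These calls depended on single libraries and on scaling. Without KO replicate 1, 3 of 93 tested members were higher (3.23%, background 9.97%) and 4 lower (background 9.94%), and without KO replicate 2, 11 were higher (11.8%, background 11.3%) and 6 lower (background 11.9%). Leaving out WT replicate 1 gave 6 of 116 higher (5.17%, background 6.74%) and 2 lower (background 4.31%), and leaving out WT replicate 2 gave 3 of 116 higher (2.59%, background 8.31%) and 4 lower (background 5.52%). When each library was centred on the other protein-coding genes of chromosome 19, 1 member was called higher (0.847%, background 6.24%) and 2 lower (1.69%, background 6.87%), while the median log2 change of the members was 0.23. With GC content and length removed per library, 18 of 118 were higher (15.3%, background 15.8%) and 8 lower (6.78%, background 15.9%). The median log2 change of the members was then 0.18.

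A second fit used whole reads, recovered from FPKM and gene length, and a filter of 40 reads in total over the 4 libraries. A gene can still meet this filter through 1 group alone. ZNF738 did so with 4 reads in WT and 127 in KO, and ZNF611 with 148 in WT and 9 in KO. How many members did so was not counted. The fit was chosen after the data were seen. In this limma voom fit, 55 of 167 members were higher in KO (32.9%, against 14.9% of the 16616 genes tested) and 10 were lower (5.99%, against 15.4%). Leaving out WT replicate 1 or WT replicate 2 lowered the number called higher to 25 of 160 (background 8.08%) and 28 of 164 (background 9.36%). Leaving out KO replicate 1 or KO replicate 2 gave 41 of 160 (background 17.2%) and 61 of 162 (background 18.1%). With GC content and length removed per library, 56 of 167 were higher (background 20.8%) and 13 lower (background 17.1%). In each of these fits the share of members called higher exceeded the share of all genes. The reads showed the same direction without a test: both KO libraries lay above both WT libraries for 92 of the 167 members (55.1%, against 33.0% of all genes with at least 40 reads) and below them for 27 (16.2%, against 32.9%).

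**Figure D2:**
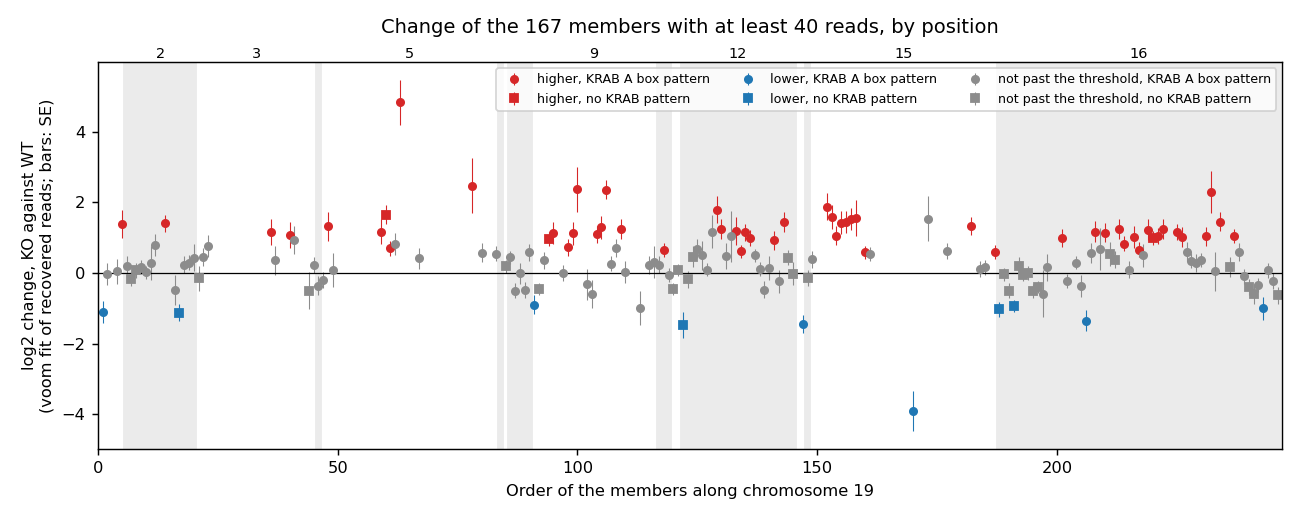
log2 change of KO against WT in the voom fit of recovered reads for the 167 members with at least 40 reads, with standard errors, against their order along chromosome 19; circles have a KRAB A box pattern and squares do not. Most of the 55 red points (higher) are circles, and the 10 blue points (lower) lie in several clusters.

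The other ZNF genes and the other genes of the chromosome gave lower shares of higher calls. Of the 191 tested numbered ZNF genes of other chromosomes, 11 were higher and 16 lower, with a median log2 change of -0.02. Of 708 tested other protein-coding genes of chromosome 19, 74 were higher and 78 lower, with a median of 0.05. With recovered reads 20 of 228 and 123 of 820 were higher, against 55 of 167 members. The difference between these gene classes was not tested.

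Members with and without the KRAB pattern gave different counts, in a split made after the values were seen and given as a description. Of 86 tested KRAB-like members 16 were higher (18.6%, against 12.1% of all tested genes) and 2 lower (2.33%, against 11.1%), with a median log2 change of 0.38. Of 32 without the pattern 3 were higher (9.38%) and 4 lower (12.5%), near those shares of all genes, with a median of -0.06. Some KRAB-like members, such as ZNF585B and ZNF841, passed the filter only through KO. At least 1 FPKM was reached by 62 and 58 KRAB-like members in WT and by 87 in each KO library. Among those without the pattern the numbers were 30 and 31 in both groups. With a mean of at least 1 FPKM over the 4 libraries as the filter, 10 KRAB-like members were higher and 2 lower (background 11.9% and 10.6%). The KRAB-like calls too depended on single libraries and on scaling. With chromosome 19 centring 1 of 86 was higher (1.16%, background 6.24%) and 1 lower (background 6.87%). With GC content and length removed 16 of 86 were higher (18.6%, background 15.8%) and 3 lower (3.49%, background 15.9%). The KRAB-like median was 0.12 without KO replicate 1 and 0.39 without WT replicate 1. In the fit of recovered reads 52 of 134 KRAB-like members were higher (38.8%, against 14.9% of all genes) and 6 lower (4.48%, against 15.4%), and 3 of 33 without the pattern were higher and 4 lower. The 3 without the pattern were ZNF714, ZNF260 and ZNF134. Transcript GC moved with this split, with medians of 41.7% and 57.8%, and its part in the difference was not tested. The medians in the fit of recovered reads were 0.57 with the pattern and -0.15 without it, and with GC content and length removed they were 0.48 and 0.08, so the sign of the second changed. The counts with that correction were 52 of 134 higher and 8 lower (background 20.8% and 17.1%), and 4 of 33 higher and 5 lower.

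The summed level of the KRAB-like members was 183 and 177 FPKM in WT and 255 and 224 FPKM in KO, a ratio of means of 1.33. The summed level of the others was 277 and 273 FPKM in WT and 233 and 246 FPKM in KO, a ratio of 0.870. The groups did not overlap in either sum. For each sum the two-sided exact permutation test gave p = 0.333, which is the smallest value possible with 2 libraries a group. Over all 246 members the sums were 460, 450, 488 and 469 FPKM. The number of members with at least 1 FPKM was 92 and 89 in WT and 117 and 118 in KO.

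**Figure D3:**
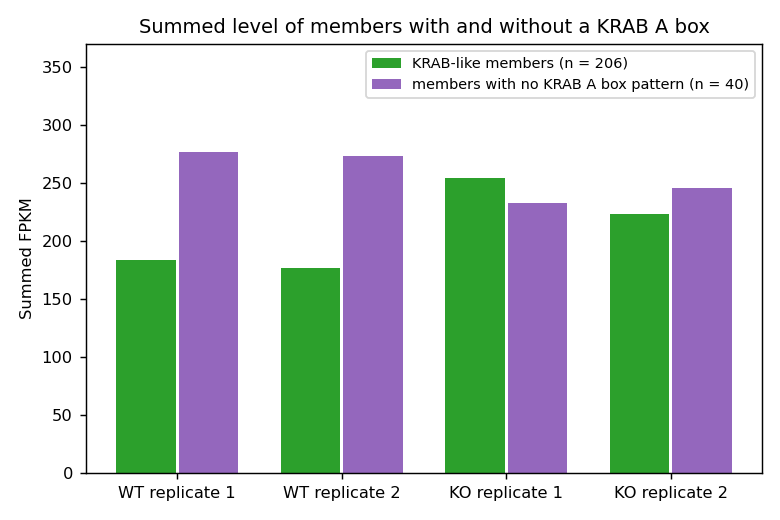
Summed FPKM in each library of the 206 members with a KRAB A box pattern and of the 40 without it, from 0. The KRAB-like sums are 183 and 177 in WT and 255 and 224 in KO, and the sums of the others are 277 and 273 in WT and 233 and 246 in KO.

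ZNF585B (ENSG00000245680 in cluster 9), a KRAB zinc finger gene with 21 finger patterns, showed the largest rise among the tested members. It stood at 0.385 and 0.502 FPKM in WT and 2.34 and 2.17 FPKM in KO. Both KO libraries were far above both WT libraries, a 5.08-fold difference of means. It was tested in the main fit only because of its level in KO (log2 change 1.17 ± 0.16 SE, limma adjusted p = 0.00898). In the fit of recovered reads, whose filter takes all libraries together, the log2 change was 2.36 (voom adjusted p = 1.10e-04). It shares 17.02% of its 100-base words with other genes, so some of its reads may belong to a copy. ZNF266 rose from 1.07 and 0.914 FPKM to 2.84 and 2.46 FPKM (limma adjusted p = 0.0166). ZNF845, with 26 finger patterns, rose from 1.16 and 0.917 FPKM to 3.11 and 2.18 FPKM (limma adjusted p = 0.0320). The calls of ZNF266 and ZNF845 were lost without WT replicate 2 and without KO replicate 1, and ZNF585B was below the filter with either KO library left out.

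ZNF274 binds the 3' ends of zinc finger genes and recruits SETDB1 there. It stood at 2.71 and 2.02 FPKM in WT and 4.93 and 4.72 FPKM in KO, 2.04-fold higher (log2 change 0.80 ± 0.16 SE, limma adjusted p = 0.0220). The call was lost without WT replicate 2. ZNF260, which has fingers and no KRAB pattern, was at 4.75 and 3.77 FPKM in WT and 9.44 and 7.25 FPKM in KO (limma adjusted p = 0.0284). ZNF776 was at 1.39 and 1.68 FPKM in WT and 3.82 and 3.03 FPKM in KO (limma adjusted p = 0.0245). ZNF260 lost its call without WT replicate 2 and without KO replicate 1, and ZNF776 without WT replicate 1 and without KO replicate 1.

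ZNF211 and ZNF134 lie beside each other in cluster 16. ZNF211 was at 2.19 and 2.13 FPKM in WT and 4.29 and 4.61 FPKM in KO (limma adjusted p = 0.0148). ZNF134 was at 2.23 and 2.64 FPKM in WT and 4.98 and 4.66 FPKM in KO (limma adjusted p = 0.0183). In both genes the KO libraries lay close together and well above the WT libraries. ZNF714 in cluster 5 was at 0.416 and 0.524 FPKM in WT and 1.56 and 1.38 FPKM in KO, and ZNF841 in cluster 15 at 0.473 and 0.655 FPKM in WT and 1.70 and 1.48 FPKM in KO (limma adjusted p = 0.0308 and 0.0341). Both were below 1 FPKM in WT and so were tested only because of their level in KO. The calls of ZNF211, ZNF714 and ZNF841 were lost with either WT library left out, and that of ZNF134 without WT replicate 1. ZNF714 and ZNF841 were below the filter with either KO library left out. The other 9 members called higher were ZNF420, ZNF155, ZNF225, ZNF234, ZNF229, ZNF350, ZNF551, ZNF417 and ZNF606, with folds from 1.996 for ZNF234 to 3.54 for ZNF155.

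ZNF865 fell the most in absolute level among the called members, from 23.8 and 21.8 FPKM in WT to 11.1 and 12.8 FPKM in KO, a 1.91-fold lower mean (log2 change -0.88 ± 0.14 SE, limma adjusted p = 0.0133). ZNF628, also in cluster 16, fell from 5.71 and 5.02 FPKM to 2.74 and 2.49 FPKM (limma adjusted p = 0.0151). ZNF114, which has 3 finger patterns, showed the largest fall on the log2 scale, from 3.37 and 3.53 FPKM to 1.15 and 1.39 FPKM (2.72-fold lower, limma adjusted p = 0.0114). In none of these 3 genes did the groups overlap. The calls of ZNF865 and ZNF628 were lost without WT replicate 1, and that of ZNF114 was kept without each library in turn.

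ZNF460 fell from 2.11 and 2.82 FPKM to 0.863 and 1.04 FPKM (limma adjusted p = 0.0272), and ZNF121 from 4.15 and 3.23 FPKM to 2.09 and 1.34 FPKM (limma adjusted p = 0.0407). ZNF575 fell from 1.68 and 2.08 FPKM to 0.479 and 0.947 FPKM (limma adjusted p = 0.0488), passed the filter only through WT, and lost its call at a smaller pseudocount and without KO replicate 1. ZNF460 lost its call without WT replicate 2 and without KO replicate 1, and ZNF121 without WT replicate 1 and without KO replicate 2. Of the 6 members that fell, ZNF114 and ZNF460 have the KRAB pattern.

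**Figure D4:**
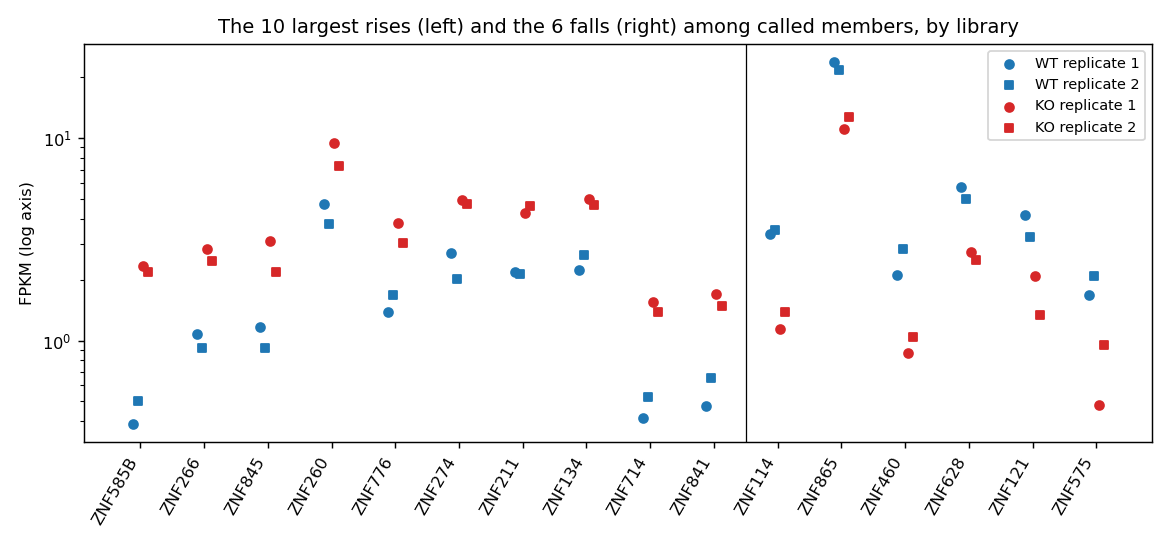
FPKM in each library, on a log axis, of the 10 called members with the largest rise and of the 6 called members that fell; blue is WT, red is KO, and the marker shape gives the replicate. The genes were chosen among called members whose groups do not overlap. ZNF585B is farthest apart, at 0.385 and 0.502 against 2.34 and 2.17.

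The promoters shown are those of the 3 called members with the largest rise and the 3 with the largest fall that have a RefSeq entry, so that their CpG content can be seen. Each is the 250 bases before the RefSeq start on GRCh38.p14, read 5' to 3' on the gene's strand, with each CpG in capitals. ZNF585B lies at chr19:37210537-37210786 and ZNF266 at chr19:9435574-9435823, both on the minus strand. The others lie on the plus strand, ZNF845 at chr19:53333499-53333748, ZNF865 at chr19:55605397-55605646, ZNF460 at chr19:57279732-57279981 and ZNF628 at chr19:55476367-55476616.
ZNF585B: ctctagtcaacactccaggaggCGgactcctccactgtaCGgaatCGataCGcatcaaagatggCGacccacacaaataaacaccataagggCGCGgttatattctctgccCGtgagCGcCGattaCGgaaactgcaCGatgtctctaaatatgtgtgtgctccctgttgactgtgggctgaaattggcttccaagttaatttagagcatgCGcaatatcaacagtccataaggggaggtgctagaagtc
ZNF266: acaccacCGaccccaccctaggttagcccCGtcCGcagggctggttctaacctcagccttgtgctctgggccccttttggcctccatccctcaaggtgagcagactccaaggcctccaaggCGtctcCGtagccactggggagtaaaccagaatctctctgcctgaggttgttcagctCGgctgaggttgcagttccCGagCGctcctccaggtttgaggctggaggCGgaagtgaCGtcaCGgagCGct
ZNF845: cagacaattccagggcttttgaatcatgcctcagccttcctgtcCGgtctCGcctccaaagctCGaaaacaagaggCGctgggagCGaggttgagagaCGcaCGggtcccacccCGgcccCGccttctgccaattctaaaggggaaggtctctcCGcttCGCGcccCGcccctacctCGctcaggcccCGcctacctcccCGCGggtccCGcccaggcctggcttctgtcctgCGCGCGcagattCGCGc
ZNF865: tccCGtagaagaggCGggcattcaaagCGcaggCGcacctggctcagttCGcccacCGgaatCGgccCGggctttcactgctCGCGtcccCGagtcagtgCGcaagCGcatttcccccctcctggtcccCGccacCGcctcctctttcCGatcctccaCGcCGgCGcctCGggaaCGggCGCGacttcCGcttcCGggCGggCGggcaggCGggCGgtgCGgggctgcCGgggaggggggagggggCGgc
ZNF460: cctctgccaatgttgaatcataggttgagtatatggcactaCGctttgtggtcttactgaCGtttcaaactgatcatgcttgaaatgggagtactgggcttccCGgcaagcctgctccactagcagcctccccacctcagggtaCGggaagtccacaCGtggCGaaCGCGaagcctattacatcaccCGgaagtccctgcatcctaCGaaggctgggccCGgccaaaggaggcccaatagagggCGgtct
ZNF628: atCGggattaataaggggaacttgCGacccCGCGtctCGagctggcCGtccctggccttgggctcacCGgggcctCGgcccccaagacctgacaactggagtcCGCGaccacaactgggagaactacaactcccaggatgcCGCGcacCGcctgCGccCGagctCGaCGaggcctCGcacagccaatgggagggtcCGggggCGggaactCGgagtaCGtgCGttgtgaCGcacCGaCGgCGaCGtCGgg
The printed bases hold 13 CpG in ZNF585B, 12 in ZNF266 and 23 in ZNF845, which rose. They hold 32 in ZNF865, 12 in ZNF460 and 29 in ZNF628, which fell. The CpG counts of the promoters that rose and fell thus overlap. The start used for ZNF585B lies inside the gene as annotated in GENCODE, so other starts of that gene are not covered.

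Over the 215 members with a promoter entry, the 300 bases from 250 before to 50 after the start held a median of 20 CpG, against 14 in all 35116 RefSeq promoters. The 35116 were not restricted to protein-coding genes or to 1 promoter per gene. Members are protein-coding, with 1 promoter each, so the 2 sets are unlike. CpG-rich windows were less frequent in members: 10.2% had 31 or more CpG, against 20.7% of all promoters. In the main test, where 12.1% of all genes were higher and 11.1% lower, 1 of 17 tested members with 31 or more CpG was higher and 2 lower (11.8%, near the background), with a median log2 change of -0.27. With 21 to 30 CpG 6 of 43 were higher and 1 lower, with 11 to 20 CpG 8 of 45 were higher and 2 lower, and with 0 to 10 CpG 1 of 4 was higher and 0 lower. In the fit of recovered reads, where 14.9% of all genes were higher and 15.4% lower, 1 of 18 members with 31 or more CpG was higher (5.56%) and 4 lower (22.2%). With 21 to 30 CpG 18 of 65 were higher (27.7%) and 2 lower, with 11 to 20 CpG 31 of 62 were higher and 3 lower, and with 0 to 10 CpG 1 of 6 was higher and 0 lower. The KRAB pattern moved with this split: 29.7% of the 37 without it had 31 or more CpG, and 6.18% of the 178 with it. Transcript GC also moved with this split, with a median of 56.4% at 31 or more CpG and 42.1% at 11 to 20, and the parts of the 3 features were not separated by a test.

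**Figure D5:**
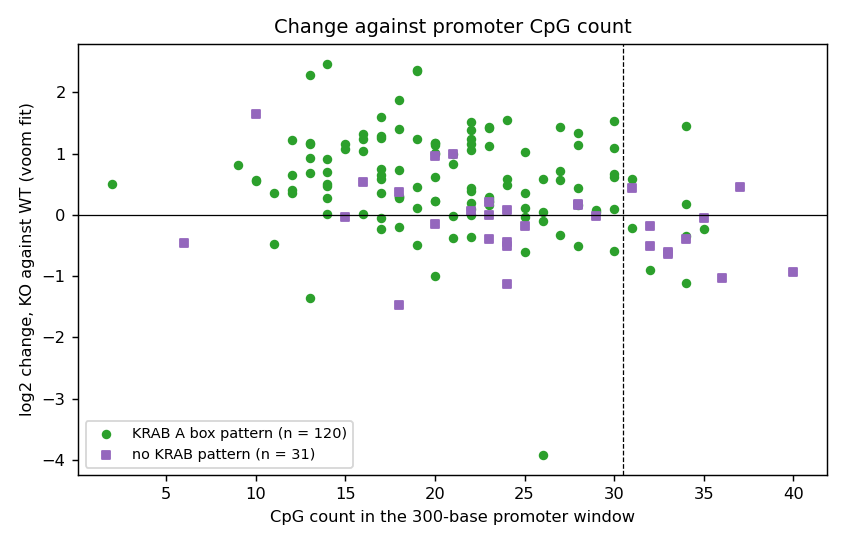
log2 change of KO against WT in the voom fit of recovered reads against the CpG count of the 300-base promoter window, for 120 KRAB-like members and 31 others with a promoter entry. To the right of the dashed line, at 31 or more CpG, 1 of 18 members was called higher and 4 lower.

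Of 9 motifs searched on both strands of the 300-base windows, 4 are given here with their shares. CCAAT was present in 53.5% of member promoters and 34.6% of all promoters, and GGGCGG in 67.9% and 45.0%. CCGGAAGT, a core of ETS family sites, was present in 20.9% of member promoters and 4.14% of all. ACTACAA was present in 5.12% and 2.77%. Of the 9 motifs only TTTGAA was less frequent in member promoters (10.2%) than in all promoters (15.2%). Occurrences were counted per motif and may overlap one another. A match describes letters in a window and is not a measured site. All promoters are here again the 35116 with no restriction to protein-coding genes.

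The share of members below 0.1 FPKM in every library was read for each of these motifs. Of the 45 members with CCGGAAGT, 2 stayed below that level, and of the 170 without it 55 did. With GGGCGG 53 of 146 did, and without it 4 of 69. With CCAAT 41 of 115 did, and without it 16 of 100. With ACTACAA 1 of 11 did, and without it 56 of 204. These counts were read after the values were seen and describe the members only.

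With recovered reads, where 14.9% of all genes were higher, 15 of 42 members with CCGGAAGT (35.7%) and 36 of 109 without it (33.0%) were higher. With GGGCGG 21 of 87 were higher (24.1%), and without it 30 of 64 (46.9%). With CCAAT the counts were 26 of 71 and without it 25 of 80, and with ACTACAA 0 of 10 and without it 51 of 141. None of these differences was tested.

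Runs of neighbouring members on the same side were read from the members with at least 40 reads, of which 55.1% had both KO libraries above both WT libraries, against 33.0% of all genes. The longest such run was 12 genes from ZNF530 to ZNF418 in cluster 16 (chr19:57599885-57935393), with ratios of means from 1.23 to 5.33 and a median of 2.04. A run of 8 from ZNF543 to ZNF419 lay in the same cluster. In cluster 15 a run of 10 from ZNF175 to ZNF480 (chr19:51571298-52325922) had ratios from 1.31 to 3.71. In cluster 5 a run of 9 from ZNF430 to ZNF254 had a median ratio of 1.77. Members with under 40 reads were left out before runs were formed, so such members can lie inside a run. The run of 9 encloses the 10 members from ZNF208 to ZNF730 that stayed below 0.1 FPKM, and so is not an unbroken block. Runs of 6 were found from ZNF420 to ZNF569 in cluster 9 and from ZNF284 to ZNF227 in cluster 12. The longest run in the other direction was 4 genes from ZNF497 to ZNF132 in cluster 16, with ratios from 0.502 to 0.788. The median share of 100-base words held in common with other genes was 5.45% in the run of 12, 4.34% in the run of 8 and 0.00% in the other runs of this kind. The length of the runs was not tested.

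By cluster, the calls of the main test are read against 12.1% of all genes higher and 11.1% lower. In cluster 16, 7 of 43 tested members were higher (16.3%) and 3 lower, in cluster 12, 4 of 18 higher (22.2%) and 1 lower, in cluster 9, 3 of 13 higher (23.1%) and 0 lower, and in cluster 15, 3 of 12 higher (25.0%) and 0 lower. In cluster 5, 1 of 6 was higher, in cluster 2, 1 of 8 was higher and 1 lower, and in cluster 3, 0 of 4 were called. With recovered reads, against 14.9% higher and 15.4% lower, cluster 15 had 10 of 17 higher (58.8%) and 1 lower, and cluster 5 had 6 of 12 higher and 0 lower. Cluster 9 had 9 of 21 higher (42.9%) and 1 lower, cluster 12 had 8 of 24 higher (33.3%) and 1 lower, and cluster 16 had 17 of 53 higher (32.1%) and 4 lower. Cluster 3 had 2 of 9 higher (22.2%) and 0 lower, and cluster 2 (chr19:7069444-9793180) had 1 of 13 higher (7.69%) and 1 lower. Differences between clusters were not tested.

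The remaining members named for being the most abundant or most changed of their cluster did not pass the threshold of the main test. ZNF507 was at 6.31, 5.28, 7.12 and 6.03 FPKM, and ZNF574 at 14.3, 13.4, 9.59 and 10.6 FPKM (limma adjusted p = 0.502 and 0.0754). ZNF302 was at 7.19 and 6.49 FPKM in WT and 10.2 and 8.44 FPKM in KO (limma adjusted p = 0.114). In cluster 10 the neighbours ZNF780A and ZNF780B gave 7.11, 5.72, 7.15 and 5.25 FPKM and 2.15, 2.18, 3.72 and 3.07 FPKM. ZNF473, which takes part in histone pre-mRNA processing, was at 3.48, 2.82, 3.24 and 2.48 FPKM, with overlapping groups. In cluster 1, ZNF554 was at 1.74 and 1.24 FPKM in WT and 0.573 and 0.808 FPKM in KO, and ZNF77 at 0.427 and 0.476 FPKM in WT and 1.15 and 1.25 FPKM in KO (limma adjusted p = 0.0905 and 0.0547). ZNF480 in cluster 15 was at 3.85 and 4.09 FPKM in WT and 6.25 and 5.29 FPKM in KO, and ZNF614 in the same cluster at 1.19 and 0.693 FPKM in WT and 3.14 and 1.92 FPKM in KO (limma adjusted p = 0.0753 and 0.0541). With recovered reads ZNF554 was called lower (voom adjusted p = 0.0209), and ZNF77, ZNF614 and ZNF780B were called higher (voom adjusted p = 0.0204, 0.00742 and 0.0264). ZNF333, the only gene of cluster 4, was at 0.826, 0.573, 0.556 and 0.520 FPKM, below the filter of the main test, and did not pass the threshold in the fit of recovered reads (voom adjusted p = 0.337).

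A pair of members below the filter of the main test had the largest changes in the fit of recovered reads, and they were picked out after their values were seen. ZNF738 in cluster 5 had 1 and 3 reads in WT and 66 and 61 reads in KO (0.0140, 0.0469, 0.965 and 0.953 FPKM). The ratio of summed reads per depth was 32.4, with an exact 95% interval of 12.4 to 121 that covers counting error only. ZNF611 in cluster 15 went the other way, with 71 and 77 reads in WT and 6 and 3 reads in KO (0.544, 0.657, 0.0479 and 0.0256 FPKM). Its WT level was 16.1 times its KO level, with an exact 95% interval of 8.25 to 35.9. Both genes passed the threshold in the fit of recovered reads (voom adjusted p = 3.04e-04 and 5.11e-04). Each met the read filter of that fit through 1 group alone, ZNF738 through KO and ZNF611 through WT. The genes were picked from these same reads, so the intervals and p-values are not independent of that choice.

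The partners through which KRAB proteins act were read from a list of 37 symbols, of which 36 were found and 35 tested. Of these 13 were higher in KO and 1 lower, against 12.1% and 11.1% of all tested genes. TRIM28, the corepressor bound by the KRAB domain and itself on chromosome 19, rose from 99.1 and 90.5 FPKM to 144 and 141 FPKM (1.501-fold, limma adjusted p = 0.0428). Leaving out any 1 library ended this call (limma adjusted p from 0.0668 to 0.297), as did quantile normalization (0.0798) and chromosome 19 centring (0.148), and it was held in the fit of recovered reads (voom adjusted p = 0.0124). SETDB1, its methyltransferase partner, was at 4.51 and 5.07 FPKM in WT and 5.81 and 5.61 FPKM in KO, short of the threshold (limma adjusted p = 0.286).

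Among the HP1 proteins, which bind methylated H3K9, CBX3 rose from 27.9 and 26.9 FPKM to 56.4 and 54.8 FPKM (limma adjusted p = 0.00839). CBX5 rose from 13.5 and 15.1 FPKM to 36.6 and 22.7 FPKM (limma adjusted p = 0.0405), a call that was lost without WT replicate 1. Another H3K9 methyltransferase, SUV39H1, rose from 1.71 and 2.50 FPKM to 5.83 and 6.61 FPKM (limma adjusted p = 0.0101). The H3K9 methyltransferases SUV39H2, EHMT1 and EHMT2 did not pass the threshold (limma adjusted p = 0.0542, 0.234 and 0.0799). Of these, SUV39H2 was called higher in the fit of recovered reads (voom adjusted p = 0.0267). TRIM24, a relative of TRIM28, rose from 2.27 and 2.05 FPKM to 5.96 and 4.68 FPKM (limma adjusted p = 0.0130).

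Of the DNA methylation genes, UHRF1, DNMT1 and DNMT3B rose, and DNMT3A (2.29, 3.01, 3.06 and 3.60 FPKM) did not pass the threshold. UHRF1, which recruits the maintenance methyltransferase to replicated DNA, went from 2.75 and 3.68 FPKM to 11.7 and 16.5 FPKM (4.39-fold, limma adjusted p = 0.00593). DNMT1, the maintenance methyltransferase, went from 6.49 and 8.20 FPKM to 14.4 and 15.1 FPKM (limma adjusted p = 0.0144), and DNMT3B, a de novo methyltransferase, from 1.05 and 1.26 FPKM to 3.65 and 4.36 FPKM (limma adjusted p = 0.00762). RBBP7, a histone chaperone of the NuRD complex, rose from 17.02 and 16.4 FPKM to 29.8 and 31.7 FPKM (limma adjusted p = 0.0123). The call of DNMT1 was lost without WT replicate 1 and that of RBBP7 with either WT library left out. The other 4 that rose were ATF7IP, ATRX, HDAC2 and MTA2. MBD3, a further NuRD subunit, was the 1 that fell, and 21 did not pass the threshold. Without WT replicate 1, WT replicate 2 or KO replicate 1 the number higher was 6, 7 and 8.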

How the data were processed

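RNA from 4 libraries of HFL1 cells, 2 WT and 2 KO, was sequenced in paired-end mode on an Illumina instrument, per the labels' protocols. The submitters' processing notes name HISAT2 2.0.5 and the builds hg38 and mm10, and the counting tool is not given in the sources used here. The authors deposited 1 FPKM value per gene and library, and the coordinates of all 58735 genes equalled GENCODE 29 on GRCh38. FPKM times gene length was a whole multiple of 1 step per library for 100% of values (tolerance 0.01), from which 17715774, 16173899, 17699349 and 16622382 reads were recovered (the WT pair first, then the KO pair, each by replicate number).

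Genes with at least 1 FPKM in at least 2 libraries were tested as log2(FPKM + 1) with limma 3.58.1 in R 4.3.3, with a mean-dependent prior, group as the only term and Benjamini-Hochberg adjustment over all 14100 genes. Log2 changes are on that scale unless the fit of recovered reads is named, and they understate the change of weakly expressed genes. Folds are mean KO FPKM over mean WT FPKM, or the inverse. The fit was tested on simulated data. limma voom on recovered reads used genes with at least 40 reads and the authors' implied divisor as library size.

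The KRAB and finger patterns were searched in translated GENCODE 29 coding transcripts, where a RefSeq protein table had been planned. Of the members, 179 overlap another gene and 34 share at least 10% of their 100-base words with other genes, so their counts are uncertain. RefSeq promoters matched 215 members. Named members were the 10 largest called changes each way with groups that do not overlap, the 5 most abundant, the most abundant and most changed of each cluster, 8 genes of known function, TRIM28, SETDB1 and 8 others of their list, and CALU. Members and lists were chosen with earlier results of these data known. The splits by feature (9, besides 9 motifs), the runs, the voom fit, its 5 alternatives and 2 further alternatives were chosen after the values were seen.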

Additional observations from a re-analysis of the deposited data

How the results depend on the processing

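The number of members called higher in KO (19) was 0 with no filter on low values, 1 with at least 5 FPKM required, 1 with libraries centred on the other chromosome 19 genes, 12 with a mean of at least 1 FPKM, 55 with voom on recovered reads, and 3 to 11 without 1 library. The number called lower (6) was 0, 2 and 2 under the first 3 of these, 10 with voom, and 2 to 6 without 1 library. For KRAB-like members (16 higher, 2 lower) the counts were 0 and 0 with no filter, 0 and 0 at 5 FPKM, 1 and 1 with chromosome 19 centring, 10 higher at a mean of 1 FPKM, 52 and 6 with voom, and 2 to 9 higher and 1 to 2 lower without 1 library. All genes called numbered 3283 and were 376 with no filter, 1848 with chromosome 19 centring, 5032 with voom and 1472 to 3101 without 1 library. With the replicate number as a block, 39 members were higher and 13 lower, 35 and 5 among KRAB-like members, and 5545 of all genes were called. The labels do not say that equal numbers pair the libraries, there are only 2 pairs, and the deviations of same-numbered libraries correlated at 0.411 across genes. In the list of KRAB partners (13 higher, 1 lower) the calls were 1 and 0 with no filter, 8 higher with quantile normalization, 7 and 0 with chromosome 19 centring, and 6 to 12 higher and 0 to 1 lower without 1 library.

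The median log2 change of the tested members (0.27) was 0.39 and 0.33 at pseudocounts of 0.1 and 0.5, 0.11 with no filter, 0.18 with a mean of at least 1 FPKM, 0.18 with GC content and length removed, 0.41 with voom and 0.076 to 0.30 without 1 library. It was negative, -0.048, among the 21 members with at least 5 FPKM. In the fit of recovered reads, 25 to 61 members were higher and 7 to 13 lower without 1 library. Signs changed, with no call, for ZNF358 (-0.387 to 0.048 without 1 library), ZNF473 (-0.251 to 0.034 without 1 library, and 0.0063 without WT replicate 1), ZNF507 (-0.0105 with GC content and length removed), ZNF580 (-0.147 to 0.044 without 1 library, and 0.034 with the GC correction) and ZNF780A (-0.239 to 0.143 without 1 library). A gap of 2 Mb gave 9 clusters. The cause of these differences was not tested. No filter and at least 5 FPKM change the genes tested by construction.

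Of the settings in which they were tested, ZNF585B and ZNF114 lost their call with no filter alone. ZNF585B was below the filter with either KO library left out and at 5 FPKM, and ZNF114 at 5 FPKM. The 2 planned count models were not run, because the deposited values are FPKM. With 2 libraries a group no exact test of a single value can reach 0.05, and 79 members had under 40 reads and were not compared.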
